A study of Mus musculus with 10 samples.

Results

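Cytosolic ribosomal proteins were followed here through 77 genes of the large (Rpl, Rplp) and small (Rps, Rpsa) ribosomal subunit, in RNA-seq of mouse esophageal epithelium. Members were all rows of the deposited expression table whose symbol follows the nomenclature of these genes (Rpl or Rps with a number and at most the ending a, x or a1, together with Rplp0, Rplp1, Rplp2 and Rpsa), 77 of 56691 genes, and 46 encode large-subunit and 31 small-subunit proteins. The study compared 5 libraries from wild-type mice (WT) with 5 from mice of the genotype p63CreERT2;Mst1loxp/loxp;Mst2-/- (KO). In the KO mice Mst2 is deleted throughout, and Mst1 is removed by a tamoxifen-activated Cre recombinase under p63, a gene of basal epithelial cells. Both groups received tamoxifen at 100 mg/kg, 3 doses spaced by 2 weeks, and the epithelium was collected at around 8 weeks. The labels give no age, sex or strain, and do not say whether WT mice carried the Cre allele or were littermates.

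Each cytosolic ribosome contains, in near-equal amounts, a single copy of most of these proteins, which surround the ribosomal RNA, and their mRNAs are among the most abundant of growing cells. Most of these mRNAs start with a 5' terminal oligopyrimidine tract (TOP), a run of C and T letters through which the kinase mTORC1 and the RNA-binding protein LARP1 set their translation together. Mammalian genomes also hold many processed pseudogenes of ribosomal protein genes, intronless copies made by reverse transcription of the mRNA, and short reads of a gene and of a recent copy can be almost the same.

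Copies were taken as annotated genes that match at least 50% of a member's coding sequence with at least 85% identity. By this definition 75 members had copies, 1433 in all, with a median of 13 and up to 125 (Rpl7a), and 1371 of them are annotated as processed pseudogenes. Rpl8 and Rpl41 had none. The sequences below are 150-base stretches, the length of 1 read, of coding sequences and of the matching copy (GENCODE M21 transcripts). They are shown because large differences between genotypes or single libraries concerned these pairs. Capitals mark the bases at which the member and a shown copy differ, positions are counted from 1 at the A of the member's start codon, and differences are given over the aligned bases (up to 3 bases of a coding sequence lay outside the alignment).

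Rpl34 and Rpl34-ps1 differ by T132C and C318G. Bases 57 to 206 are:
Rpl34: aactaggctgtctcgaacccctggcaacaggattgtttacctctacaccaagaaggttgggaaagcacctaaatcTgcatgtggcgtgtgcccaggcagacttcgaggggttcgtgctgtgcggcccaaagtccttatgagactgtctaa
Rpl34-ps1: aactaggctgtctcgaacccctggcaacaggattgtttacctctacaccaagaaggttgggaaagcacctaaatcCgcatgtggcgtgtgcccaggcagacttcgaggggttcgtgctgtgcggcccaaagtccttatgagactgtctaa
Rpl29 differs from both Gm13841 and Gm8210 by C72A, C300T and T423C, and from Gm10709 by G205A, C300T, T423C and G457A. Bases 1 to 150 show the position at which Gm13841, but not Gm10709, departs from Rpl29:
Rpl29: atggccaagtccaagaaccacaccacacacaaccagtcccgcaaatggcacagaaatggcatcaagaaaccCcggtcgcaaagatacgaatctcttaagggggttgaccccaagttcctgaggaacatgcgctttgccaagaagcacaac
Gm13841: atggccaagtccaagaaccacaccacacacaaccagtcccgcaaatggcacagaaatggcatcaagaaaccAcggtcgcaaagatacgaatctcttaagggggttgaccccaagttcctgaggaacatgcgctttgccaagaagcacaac
Gm10709: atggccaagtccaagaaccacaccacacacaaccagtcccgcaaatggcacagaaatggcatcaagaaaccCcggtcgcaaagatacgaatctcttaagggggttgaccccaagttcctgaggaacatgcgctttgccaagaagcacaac
Rps3a1 and Rps3a2 differ by T216C, T534C, A645T and T668C, the last 3 of which lie within bases 526 to 675:
Rps3a1: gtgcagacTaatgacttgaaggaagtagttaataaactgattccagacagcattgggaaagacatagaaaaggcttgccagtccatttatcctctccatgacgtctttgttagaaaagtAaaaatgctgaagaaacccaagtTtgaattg
Rps3a2: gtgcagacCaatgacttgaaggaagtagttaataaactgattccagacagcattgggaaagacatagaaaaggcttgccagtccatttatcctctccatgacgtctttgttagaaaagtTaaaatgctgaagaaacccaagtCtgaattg
Rpl3 and Rpl3-ps1 differ by C57A and T786C, and 80.5% of the 150-base stretches of Rpl3 contain neither. This share was lower in the other pairs shown. It was 17.6% for Rpl34 with Rpl34-ps1, 23.35% for Rpl29 with Gm13841 and 16.5% with Gm10709. For Rps3a1 with Rps3a2 it was 36.2%, and for Rpl26 with Gm15772 9.69%. Bases 1 to 150 are:
Rpl3: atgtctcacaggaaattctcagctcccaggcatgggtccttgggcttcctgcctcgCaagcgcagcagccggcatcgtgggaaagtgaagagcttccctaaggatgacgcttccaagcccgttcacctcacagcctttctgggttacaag
Rpl3-ps1: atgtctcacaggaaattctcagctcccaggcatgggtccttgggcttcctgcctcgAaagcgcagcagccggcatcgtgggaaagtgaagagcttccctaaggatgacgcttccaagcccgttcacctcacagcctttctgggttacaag
Rpl26 and Gm15772 differ by C177T and T288C, both within bases 157 to 306:
Rpl26: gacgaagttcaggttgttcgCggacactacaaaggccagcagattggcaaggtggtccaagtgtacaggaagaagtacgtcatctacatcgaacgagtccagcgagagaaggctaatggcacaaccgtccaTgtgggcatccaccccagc
Gm15772: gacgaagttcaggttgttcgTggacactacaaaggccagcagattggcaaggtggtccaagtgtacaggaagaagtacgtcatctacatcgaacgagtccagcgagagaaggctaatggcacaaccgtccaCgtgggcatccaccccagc

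Values are FPKM, fragments per kilobase of gene model and per 1000000 fragments, as the authors deposited them. Levels of different genes thus depend on the length of each gene model as well as on its fragments. In WT 1, Rps3, with a gene model of 4483 bases, had an estimated 12427 fragments and 184 FPKM. Rps15, with 630 bases, had an estimated 10251 fragments and 1079 FPKM. From the values of short genes the libraries were estimated to hold 13070000 to 16440000 fragments. The targeted kinases followed the labels for Stk3 (Mst2), at 2.08 to 3.48 FPKM in WT and 0.05 to 0.25 in KO, whereas Stk4 (Mst1) was at 17.0 to 22.7 in WT and 12.2 to 17.4 in KO. Of the 8 epithelial markers all were detected, Trp63 and Perp lower in KO. Endothelial, muscle, and nerve and glia markers stayed under 1 FPKM in every library, leukocyte markers summed to 0.82 to 3.39 FPKM, and among 6 fibroblast markers only Dcn passed the filter, at 8.59 ± 3.93 in WT and 0.308 ± 0.459 in KO (SD, n = 5 each). Nothing in the labels ties a library to its own mouse, and the tests therefore weigh differences against the spread among the libraries, which may be technical.

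All 77 members passed the filter of at least 1 FPKM in at least 5 libraries. Their mean level over the 10 libraries ranged from 2.21 to 1415 FPKM, with a median of 98.9. The highest were Rplp1, an acidic stalk protein, Rps15 of the small subunit, Rpl4, which lines the exit tunnel of the large subunit, Rplp0, the base of the stalk, and Rpl8. Rplp1 was at 1157, 1801, 1317, 1595 and 1103 FPKM in WT 1 to 5 and at 1716, 1821, 1266, 1136 and 1240 in KO 1 to 5. The WT and KO values of Rplp1 overlapped over almost their whole range.

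At the other end, 8 members had a mean under 10 FPKM. These were Rps13 (2.21), Rpl28 (4.65), Rps27 (5.04), Rps23 (5.86), Rpl5 (5.91), Rps29 (7.68), Rps27a (8.64), which is made as a fusion with ubiquitin, and Rpl27 (9.94). The level went with how much of a member's sequence is found elsewhere. In 29 members every 31-base stretch of the coding sequence occurs in another annotated gene, and their median mean level was 19.5 FPKM. In 17 members under 80% of the stretches do, and the median was 448 FPKM. Across the 77 members Spearman's rho between the level and this share was -0.61, given as a description, since all members come from the same 10 libraries and share the same processing.

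**Figure D1:**
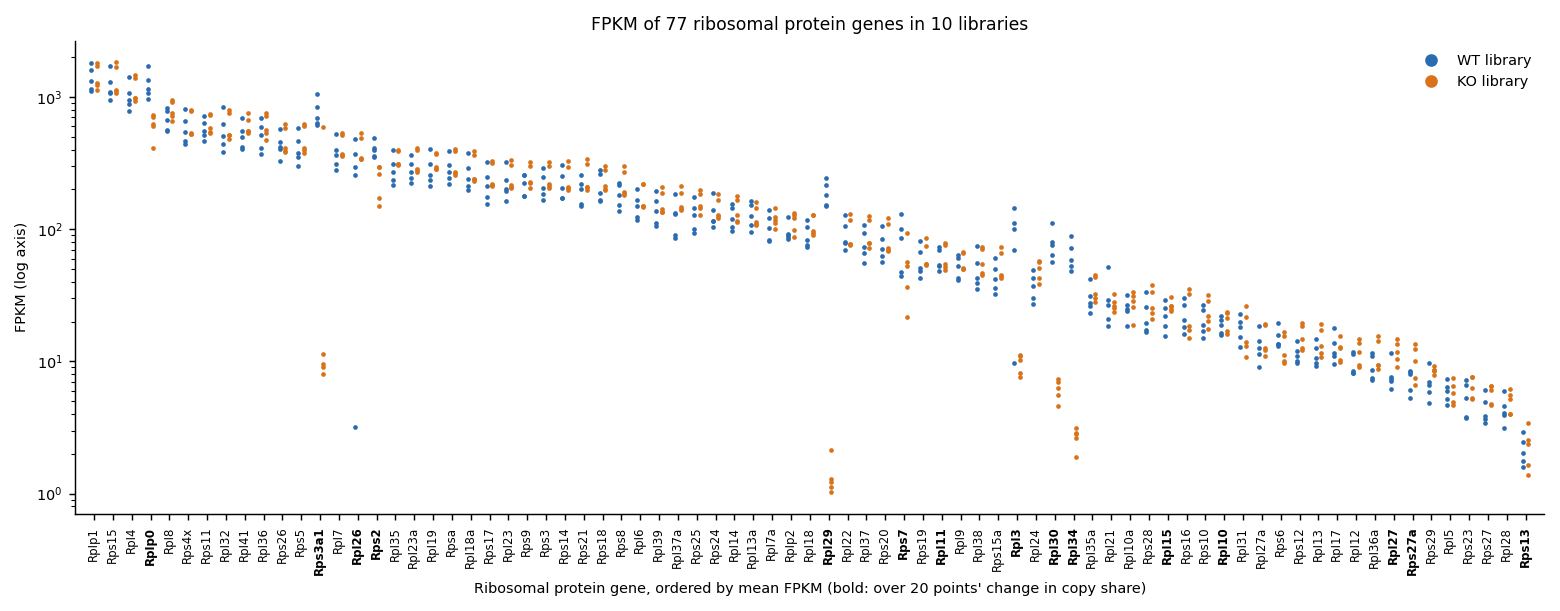
FPKM (log axis) of the 77 ribosomal protein genes, ordered by their mean, with each of the 10 libraries as a point (WT blue, KO orange). Most members form tight columns in which WT and KO overlap, while Rpl29, Rpl34, Rpl30, Rps3a1, Rplp0 and Rps2 separate. In Rps3a1, KO 2 lies just under the lowest WT library. Rpl3 separates but for WT 2, and Rpl26 has a single low WT library.

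To separate levels of a gene from the division of reads among its copies, the fragments of each member and of its copies were added up as a family, in FPM, fragments per 1000000 of the library. The share of a family's fragments that lay in copies was nearly the same in all 10 libraries for most members: it ranged over at most 5 percentage points in 44 members and over at most 20 points in 62. In 15 members it ranged over more than 20 points. This limit was chosen after the values were seen. The members nearest to it were Rpl27, with a range of 24.2 points, and Rps23, with 19.5. Because the FPKM of a member and of its copies enter the share, the grouping is not independent of the differences described below.

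Most of the 62 members with a steady copy share varied as a block from library to library. With each gene expressed as log2(FPKM + 1) minus its own median, the median of the 62 was -0.26, 0.43, -0.09, 0.17 and -0.35 in WT 1 to 5, and 0.44, 0.54, 0.00, -0.06 and -0.02 in KO 1 to 5. Thus WT 2, WT 4, KO 1 and KO 2 were high, WT 1 and WT 5 were low, and the groups overlapped. After deviations from the group means were taken, the median correlation between pairs of these members over the 10 libraries was 0.92, against 0.07 for pairs of all 11386 tested genes and 0.38 for the other 15 members. Rps3, a protein of the mRNA entry channel, followed the block most closely, with an SD of 0.03 around it on the log2 scale. Others departed from it in WT 2, where Rps29, Rplp2, Rpl10a and Rpl28 lay at -0.62, -0.60, -0.55 and -0.50 from the block's median. Rplp2, with no fragments in copies, had its lowest FPKM (84.1) in WT 2. These correlations are descriptions, since library composition moves all members of a library at once.

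**Figure D2:**
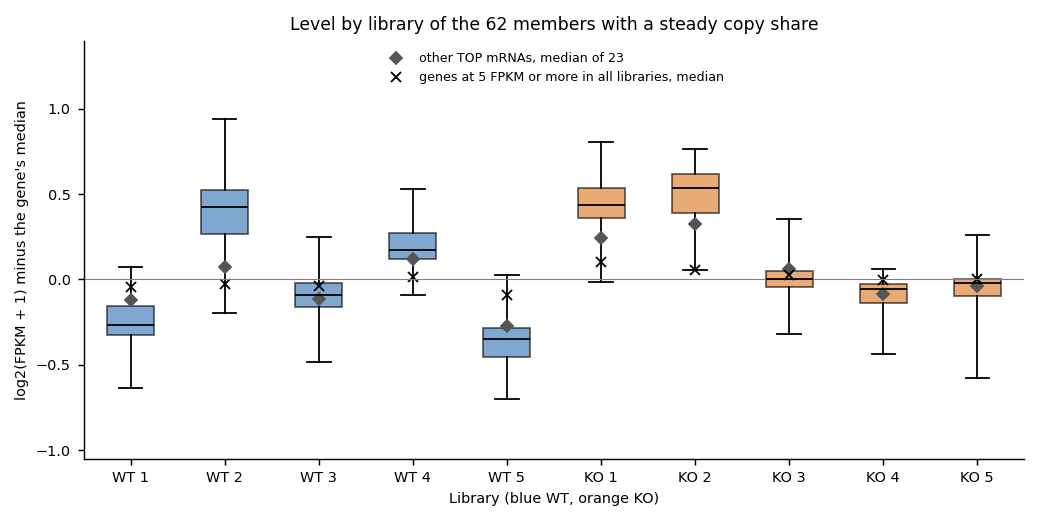
Deviation of the 62 members with a steady copy share from each gene's own median on the log2(FPKM + 1) scale, by library; boxes give the quartiles and median, whiskers the full range. Diamonds are the medians of 23 other TOP mRNAs and crosses those of genes at 5 FPKM or more in all libraries. The boxes of WT 2, KO 1 and KO 2 lie highest and that of WT 5 lowest, the diamonds lie highest in KO 2 and KO 1 and lowest in WT 5, and the crosses stay between -0.09 and 0.10.

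Expressed as a sum, the 77 members took 3.68%, 5.36%, 3.88%, 4.79% and 3.28% of all FPKM in WT 1 to 5, and 4.93%, 5.15%, 3.61%, 3.43% and 3.54% in KO 1 to 5. The group means were 4.20% ± 0.85 in WT and 4.13% ± 0.83 in KO (SD, n = 5 each), a difference well inside the spread between libraries. The FPKM sum leaves out what was assigned to copies. Of all fragments, members with their copies held 3.12% ± 0.71 in WT and 3.39% ± 0.70 in KO. Members alone held 2.63% ± 0.60 and 2.65% ± 0.56. Dbp, an output gene of the circadian clock, was at 8.45 to 16.4 FPKM in the 4 libraries with the highest sums, at 22.6 in WT 1, and at 0.38 to 1.73 in the other 5. Mitochondrially encoded genes took 7.28% to 10.0% of FPKM in WT and 6.08% to 8.92% in KO. The part of either in the level of the block was not tested. In bulk RNA, fewer cells of a type and less RNA per cell cannot be told apart.

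The genotypes were compared with limma on log2(FPKM + 1), so that fold changes are on that scale and understate changes of low genes, with Benjamini-Hochberg adjustment over all 11386 tested genes. Of the 77 members, 1 was higher in KO and 7 were lower at an adjusted p under 0.05, beside 7.90% of all tested genes higher and 4.96% lower. Among large-subunit genes 1 of 46 was higher and 5 were lower, and among small-subunit genes 0 of 31 were higher and 2 lower. The median log2 fold change of the 77 members was 0.19, beside 0.06 for all tested genes. A positive value was found in 63 of the 77 members, beside 58.6% of all tested genes. The members varied together (median pairwise correlation 0.84 within genotypes), so their signs are not separate observations. When libraries were rescaled by median ratios, 0 members were higher and 7 lower, beside 5.61% of all tested genes higher and 6.72% lower, the members' median was 0.12 and that of all genes -0.01. All tested genes thus divided into 639 higher and 765 lower in place of 900 and 565.

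None of the 62 members with a steady copy share passed the test in limma. Unadjusted, 3 of the 62 had a p under 0.05, a number that this limit can give without any difference. Their log2 fold changes lay between -0.25 (Rps6, the substrate of the S6 kinases) and 0.45 (Rpl37a), with a median of 0.21, and the lowest adjusted p among them was 0.0915, for Rps12. Rpl37a and Rps12 passed when WT 2 was left out (log2 fold change 0.60 and 0.48, adjusted p = 0.0496 and 0.048), and Rps29 when WT 4 was (0.44, adjusted p = 0.0275). The WT and KO values overlapped for each of the 62. Rpl5, which carries the 5S ribosomal RNA with Rpl11, lay nearest to no difference, with a log2 fold change of -0.01. It was at 5.16, 7.39, 4.67, 6.43 and 5.99 FPKM in WT and 6.54, 7.48, 5.81, 4.95 and 4.64 in KO. A steady copy share could be a high one: copies held 86.1% to 91.0% of the Rpl5 family's fragments and 87.0% to 94.4% of those of Rps27. The values of such a member thus cover a small part of its family. Rpl13a, known for its role in the GAIT translational control complex, was at 129 ± 28.8 FPKM in WT and 127 ± 23.7 in KO (SD, n = 5 each). Rpl21 was at 29.5 ± 13.3 and 27.2 ± 3.26, with WT 2 highest at 52.0. The members of the block with the highest FPKM did not pass the test either. Their log2 fold changes were 0.04 for Rplp1, 0.14 for Rps15, 0.17 for Rpl4 and 0.24 for Rpl8, with adjusted p of 0.912, 0.684, 0.593 and 0.346 in limma.

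All 8 members that passed the test belonged to the 15 with a variable copy share. WT and KO did not overlap in 6 of the 77 members (Rpl29, Rps3a1, Rpl34, Rpl30, Rplp0 and Rps2), beside 10.5% of all tested genes.

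Rpl29, a small basic protein of the large subunit, had the largest difference of the members. It was at 152.5, 244, 180, 218 and 149 FPKM in WT 1 to 5 and at 1.22, 1.13, 1.02, 2.12 and 1.30 in KO 1 to 5. No KO library came near the lowest WT value. The gene fell by 6.32 ± 0.16 (SE) on the log2 scale (limma adjusted p = 2.24e-10). Of its 97 copies, Gm13841 on chromosome 5 rose from 70.7 ± 14.3 to 135.2 ± 23.7 FPKM (SD, n = 5 each) and Gm8210 on chromosome 1 from 2.65 ± 1.42 to 40.7 ± 5.16 (limma adjusted p = 0.00281 and 1.1e-06). Gm10709 on chromosome 9 went the other way: it was at 23.3 to 41.1 in WT and 0 to 0.44 in KO, and fell by 4.63 (limma adjusted p = 2.36e-09). This copy lacks C72A and carries G205A and G457A. Whether any of these bases bears on its direction was not tested. As a family, Rpl29 and its copies held 267 ± 57.5 FPM in WT and 89.3 ± 12.6 in KO, without overlap. The family fell by 1.55 ± 0.16 on the log2 scale (limma adjusted p = 6.8e-05), the only family that passed the test as lower in KO. The copies held 19.3% to 21.03% of the family's fragments in WT and 96.9% to 98.7% in KO.

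Rps3a1 encodes a small-subunit protein at the mRNA exit side. In WT 1 to 5 it was at 634, 1058, 699, 847 and 612 FPKM, and in KO 1 to 5 at 11.4, 590.0, 9.0, 8.08 and 9.52. KO 2 thus lay just under the lowest WT library and the other 4 KO libraries far below. The gene fell by 5.01 ± 1.08 (SE) on the log2 scale (limma adjusted p = 0.0166), and by 6.17 without KO 2 (adjusted p = 1.84e-09). Its copies Rps3a2 on chromosome 14 and Rps3a3 on chromosome 13 rose in KO, by 4.01 and 4.36 (adjusted p = 6.03e-08 and 1.13e-08 in limma). Rps3a2 was at 12.2 to 20.7 FPKM in WT, at 206 in KO 2 and at 245 to 400.4 in the other KO libraries. The copies thus held 3.90% to 4.58% of the fragments in WT, 41.5% in KO 2 and 98.2% to 98.5% in the other 4. As a family the values were 785 ± 188 FPM in WT and 658 ± 211 in KO, which did not pass the test (log2 fold change -0.28, limma adjusted p = 0.427).

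Rpl34, a protein of the large subunit, was at 52.2, 88.8, 58.0, 72.7 and 48.2 FPKM in WT and at 2.87, 3.15, 2.84, 1.89 and 2.64 in KO. It fell by 4.12 ± 0.17 (SE) on the log2 scale (limma adjusted p = 1.16e-08). Rpl34-ps1, a copy on chromosome 6, was at 37.8, 67.4, 56.6, 62.2 and 38.5 in WT and at 554.5, 562, 400.4, 360.3 and 378 in KO. The 2 genes thus exchanged their order in every library of the other genotype, with Rpl34-ps1 higher in KO by 3.09 (adjusted p = 1.01e-06). Rpl34-ps2, named after its values were seen, rose by 1.22 from a mean of 1.28 FPKM to 4.42 (adjusted p = 0.0149). Gm10154 fell by 0.85 (adjusted p = 0.0367), and Gm4705 had a log2 fold change of 0.05. The family as a whole was at 193 ± 50.02 FPM in WT and 172 ± 36.9 in KO and did not pass the test (log2 fold change -0.16, limma adjusted p = 0.615).

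Rpl30 belongs to the L7Ae family of RNA-binding proteins. In WT it was at 64.2, 111.5, 75.3, 80.6 and 56.9 FPKM and in KO at 7.32, 7.02, 6.30, 5.59 and 4.60. It fell by 3.43 ± 0.17 (SE) on the log2 scale (limma adjusted p = 9.48e-08). Gm12191, a copy on chromosome 11, was at 37.9 to 74.1 in WT and 382 to 574 in KO, and rose by 3.08 (adjusted p = 5.14e-07). Rpl30-ps10 on the X chromosome fell by 1.85 (adjusted p = 0.00251), while Rpl30-ps1 had a log2 fold change of -0.73 and did not pass. Together the family was at 264 ± 71.1 FPM in WT and 181 ± 35.0 in KO (log2 fold change -0.52, limma adjusted p = 0.0766).

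**Figure D3:**
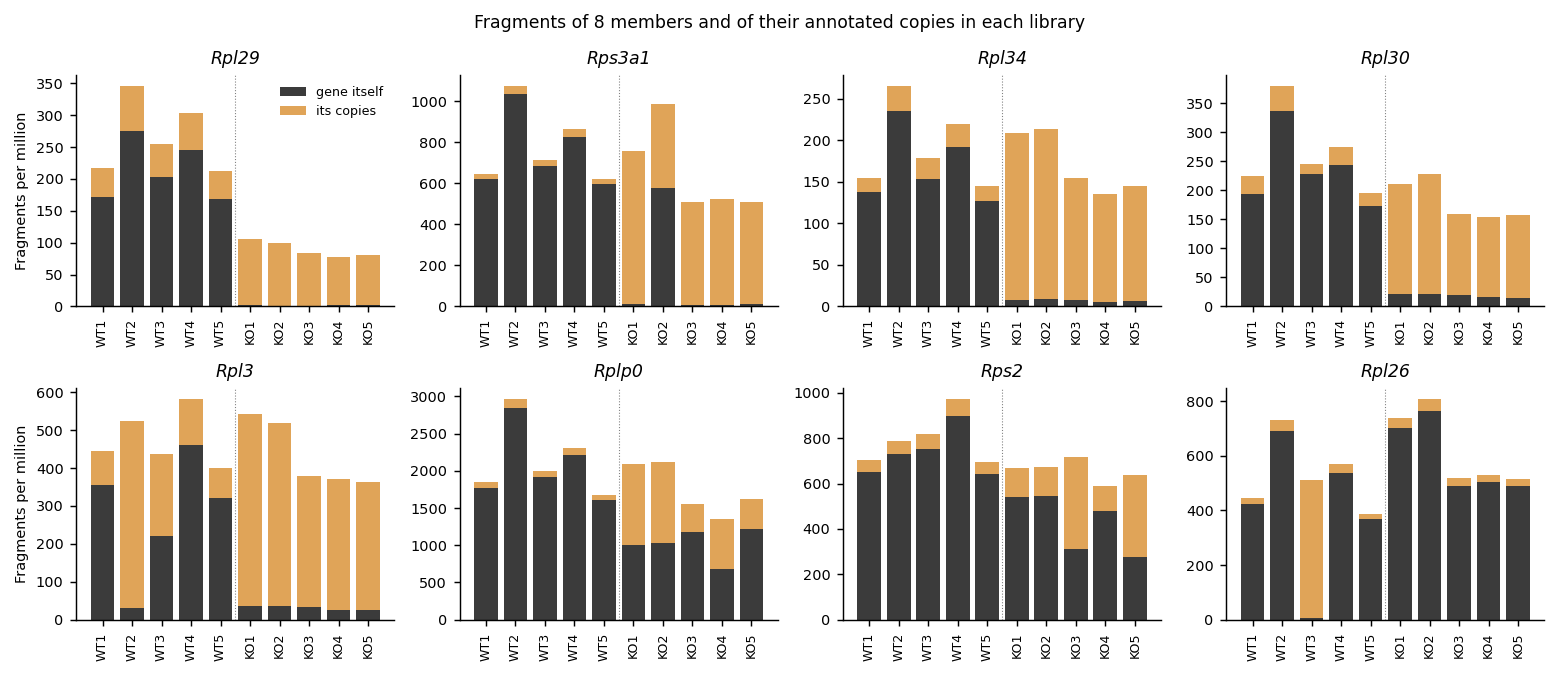
Fragments per 1000000 library fragments (FPM) of 8 members (dark) and of all their annotated copies (light), stacked, in WT 1 to 5 and KO 1 to 5, each panel on its own linear axis from 0. The dark part is close to nothing in every KO library for Rpl29, Rpl34 and Rpl30, in 4 of 5 for Rps3a1, in WT 2 and every KO library for Rpl3, and in WT 3 alone for Rpl26, while only the Rpl29 total is lower in every KO library and passed the test.

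Rpl3, which lies near the peptidyl transferase centre, divided the WT libraries. WT 1, WT 4 and WT 5 were at 112, 145 and 101 FPKM, WT 3 at 69.3 and WT 2 at 9.79, within the KO range of 7.65 to 11.2. The gene fell by 2.65 ± 0.61 (SE) on the log2 scale (limma adjusted p = 0.0207), by 3.30 without WT 2 (adjusted p = 2.56e-06), and it missed the threshold without WT 1, WT 5 or KO 5 (adjusted p = 0.0547, 0.06 and 0.0534). Rpl3-ps1 on the X chromosome followed the opposite order, at 68.8, 385, 168, 94.9 and 60.4 in WT and 262 to 395 in KO. Its log2 fold change of 1.34 did not pass the test (adjusted p = 0.0702), and Rpl3-ps2, also on the X chromosome, rose by 1.35 (adjusted p = 0.0433). The copies' share was 20.03% to 20.9% in WT 1, WT 4 and WT 5, 49.6% in WT 3, 94.1% in WT 2 and 91.4% to 93.5% in KO. The family was at 478 ± 73.9 and 435 ± 88.6 FPM (log2 fold change -0.14, limma adjusted p = 0.569).

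Rplp0 and Rps2 had smaller differences. Rplp0 was at 1067, 1716, 1155, 1335 and 968 FPKM in WT and 602, 624, 706, 411 and 735 in KO, and fell by 1.02 ± 0.20 (SE) on the log2 scale (limma adjusted p = 0.00619). Its copies Gm8730 on chromosome 8, Gm9625 on chromosome 13 and Gm6278 on chromosome 16 rose by 2.81, 3.48 and 1.57 (adjusted p = 0.000153, 5.1e-05 and 0.00644). The copies' share of the family was 4.03% to 4.41% in WT, 24.7% and 24.9% in KO 3 and KO 5, and 49.6% to 52.2% in KO 1, KO 2 and KO 4, so that the KO libraries fell into 2 sets. The family did not pass the test (log2 fold change -0.30, limma adjusted p = 0.306).

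Rps2, a protein of the mRNA entry channel, was at 355, 398, 412, 490.4 and 351 FPKM in WT and 296, 297, 171, 263 and 151 in KO. It fell by 0.81 ± 0.20 (SE) on the log2 scale (limma adjusted p = 0.0242) and missed the threshold without KO 3 or KO 5 (adjusted p = 0.0582 and 0.0538), with no filter (0.0646) and without WT 2 and WT 3 (0.0616). The same 2 libraries, KO 3 and KO 5, stood apart in a copy: Rps2-ps13 on the X chromosome was at 406 and 357.5 there, at 39.5 to 46.9 in the other KO libraries and at 16.3 to 21.8 in WT. Rps2-ps13 passed the test at an adjusted p of 0.0466, and Rps2-ps8 rose by 1.67 from a mean of 0.298 FPKM, whereas Rps2-ps10 had a log2 fold change of 0.13. Named after their values were seen, Rps2-ps6 rose by 2.26 from a mean of 3.23 FPKM to 20.1 (adjusted p = 0.000204) and Gm10420 rose by 1.00 (adjusted p = 0.000749). The Rps2 family, with 65 copies, did not pass (log2 fold change -0.27, limma adjusted p = 0.17).

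Rpl27 was the only member higher in KO. It was at 6.18, 7.31, 7.64, 11.5 and 7.13 FPKM in WT and 14.8, 11.8, 13.5, 9.11 and 10.3 in KO, with WT 4 inside the KO range. The log2 fold change of 0.54 ± 0.16 (SE) lay at the threshold (limma adjusted p = 0.0488) and was lost under median ratio scaling (adjusted p = 0.0536), when it was added to its copies (adjusted p = 0.149), and in 8 of the 10 fits that left out 1 library. It kept the call without WT 4 or KO 4. Its closest copies, Gm11518 and Rpl27-ps3, had log2 fold changes of 0.12 and 0.08.

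**Figure D4:**
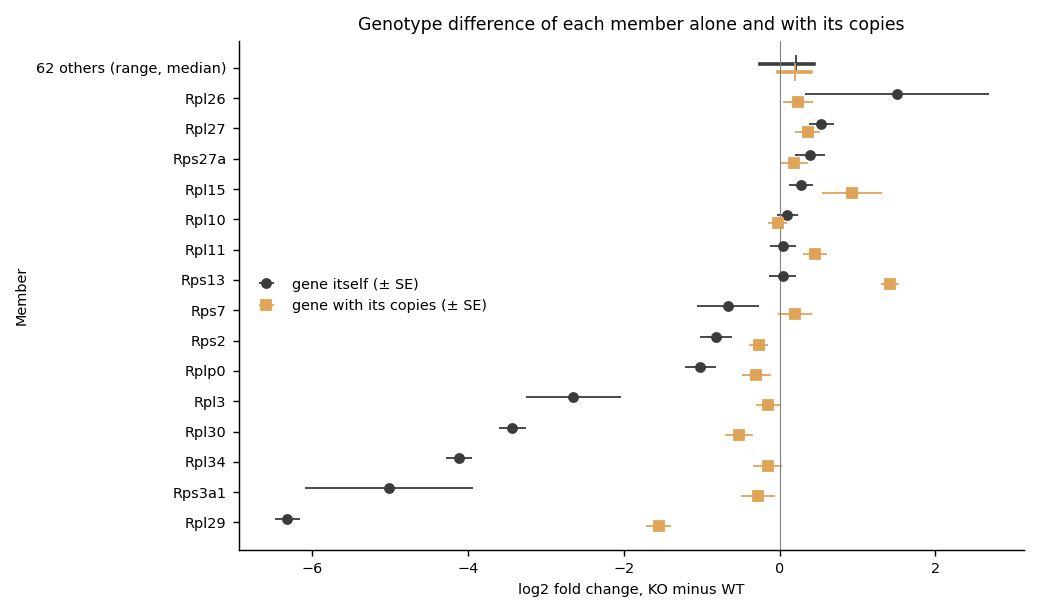
log2 fold change (KO minus WT, on the log2(value + 1) scale, with SE) of the 15 members whose copy share ranged over more than 20 points, for the gene alone (dark circles) and with its copies (light squares); the top row gives the range and median of the other 62. Alone, the 7 members that fell range from -6.32 (Rpl29) to -1.02 (Rplp0) and -0.81 (Rps2). With their copies they lie between -0.52 and -0.14, but for Rpl29 at -1.55, while Rps13 moves from 0.04 to 1.42.

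When copies were counted with their members, 1 of the 77 families was higher in KO (Rps13) and 1 lower (Rpl29), beside 8.00% and 5.02% of the features in that fit. The median log2 fold change of the families was 0.19. Rps13 itself, the member with the lowest mean, was at 1.60 to 2.92 FPKM in WT and 1.38 to 3.44 in KO. Its copy Rps13-ps1 on chromosome 8 was at 4.77 to 6.52 in WT and at 55.8, 60.5, 87.0, 74.8 and 87.8 in KO, while Rps13-ps2 on chromosome 7 was at 12.4 to 19.2 in WT, 8.28 and 11.4 in KO 1 and KO 2, and 0.80 to 1.17 in KO 3, KO 4 and KO 5. The Rps13 family held 16.5 ± 2.52 FPM in WT and 48.5 ± 5.11 in KO (log2 fold change 1.42, limma adjusted p = 9.15e-06), without overlap.

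Rpl26, Rpl15, Rpl11, Rps7 and Rpl10 were named for their copy share, after their values were seen, and none passed the test. Rpl26 was at 257 to 479 FPKM in 4 WT libraries, at 339 to 530.5 in KO, and at 3.17 in WT 3. Gm15772, its copy on chromosome 5, was at 1146 in WT 3 and at 30.1 to 76.6 in the other 9 libraries. The copies' share was 99.1% in WT 3 and 4.54% to 5.59% elsewhere, and the Rpl26 family in WT 3, at 509.9 FPM, lay within the WT range of 388 to 733.

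Rpl15 itself differed little, at 15.6 to 29.0 FPKM in WT and 24.2 to 30.6 in KO, but its copies Rpl15-ps2 and Rpl15-ps6 divided the libraries in a pattern that was not that of the genotype. Rpl15-ps2 was at 36.3 and 32.7 in WT 2 and WT 3, at 43.9 to 64.7 in KO 1, KO 3, KO 4 and KO 5, and at 0.22 to 0.30 in WT 1, WT 4, WT 5 and KO 2. Rpl15-ps6 was at 60.2 to 118 in the same 6 libraries and at 2.49 to 4.74 in the same 4. Gm10036, a copy of Rpl11, rose from 11.4 ± 2.98 to 125.4 ± 32.1 FPKM (SD, n = 5 each; limma adjusted p = 2.46e-07), while Rpl11 had a log2 fold change of 0.04. Rps7 was at 44.2 to 130 FPKM in WT and 21.8 to 92.9 in KO, with KO 3 and KO 1 lowest, below its copy Rps7-ps3 in every library (353 to 602 and 474 to 861). For Rps27a and Rpl10 the share moved between libraries of the same genotype as much as between genotypes (49.6% to 57.5% and 26.7% to 53.9% for Rps27a in WT and KO).

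**Figure D5:**
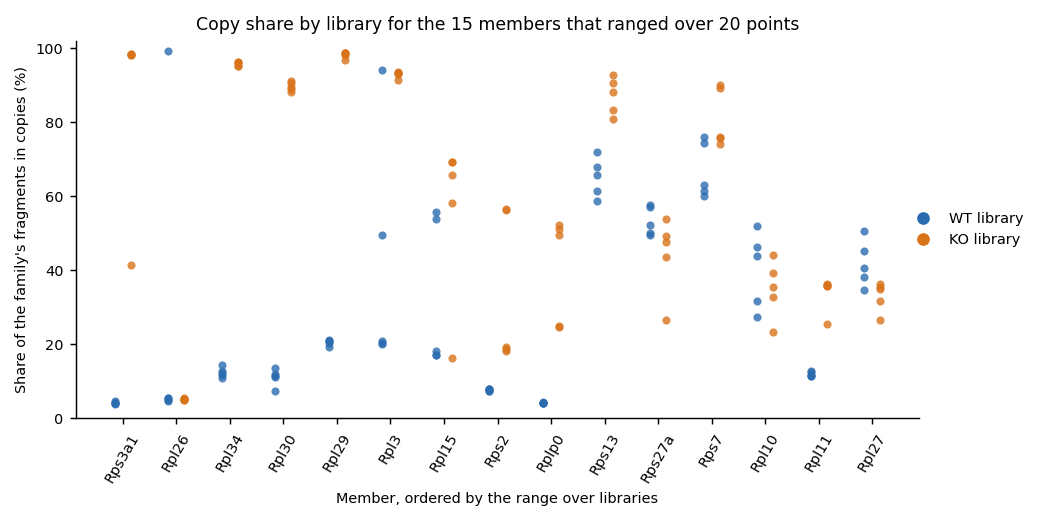
Share of each family's fragments that lies in copies (%), for the 15 members with a range over 20 points, with 1 point per library (WT blue, KO orange). WT and KO occupy opposite ends for Rpl34, Rpl30 and Rpl29, WT 2 lies with the KO libraries for Rpl3, KO 2 lies between the groups for Rps3a1, WT 3 stands alone for Rpl26, and Rpl15 mixes the genotypes.

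Over all copies, 236 of 1433 passed the filter, of which 19 were higher in KO and 4 lower, with a median log2 fold change of 0.16. The copies higher are 8.05% of those tested, near the 7.90% of all tested genes that were higher (4.96% were lower). Of these 23 copies, 21 belong to the 15 members named above, whose choice by range of copy share favours changing copies. The other 2 were Gm11942, a copy of Rplp1 (32.3 to 54.2 FPKM in WT and 82.9 to 156 in KO), and Gm37116, a copy of Rpl39 (0.83 to 2.35 and 2.45 to 5.91). Both were higher in KO without overlap of the groups, and Rplp1, whose own level is far higher, did not pass. Whether fragments assigned to a copy came from the copy or from its member was not tested.

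In all, 5 lists of genes that act with ribosomal proteins were compared with the same fit, in which 7.90% of all tested genes were higher in KO and 4.96% lower, with a median log2 fold change of 0.06 over all genes. Of 10 tested paralogs and ubiquitin fusions outside the symbol rule, 0 were higher and 1 lower: Rps4l, a paralog of Rps4x, fell from 9.49 ± 3.11 to 1.30 ± 0.37 FPKM (log2 fold change -2.15, limma adjusted p = 3e-05). Of 23 other TOP mRNAs 2 were higher and 0 lower, with a median of 0.12. Npm1, a nucleolar chaperone, rose by 0.58 (adjusted p = 0.045) and Snhg12, a snoRNA host gene, by 0.80 (adjusted p = 0.022). Of 19 tested genes of the mTORC1, LARP1 and MYC axis 2 were higher and 0 lower. These were Eif4ebp1, the translation repressor that mTORC1 phosphorylates, at 9.63 ± 1.60 in WT and 16.7 ± 2.59 in KO (log2 fold change 0.74, adjusted p = 0.00441), and Eif4e, the cap-binding factor it holds, with a log2 fold change of 0.39 (adjusted p = 0.0328).

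Of 15 tested chaperones, importers and assembly factors that handle ribosomal proteins, 4 were higher and 0 lower, with a median of 0.27. The list was not restricted to factors that serve ribosomal proteins alone. The importins Tnpo1 and Ipo5 rose by 0.48 and 0.49, Heatr3, which carries Rpl5, by 0.51, and Ltv1, an assembly factor of the small subunit, by 0.39, at limma adjusted p of 0.00802 to 0.0359. Among 13 tested genes of ribosome quality control only Gcn1, a sensor of stalled ribosomes, passed, with 3.75 ± 0.68 FPKM in WT and 5.53 ± 0.57 in KO (SD, n = 5 each; limma adjusted p = 0.0266). In these lists together 9 genes were higher, and the count varied between 2 and 17 when 1 library was left out: 17 without WT 2, 2 without WT 1, 3 without WT 5 or KO 5, and 4 without KO 1 or KO 3. The count over all 11386 tested genes moved too. With all libraries 900 were higher, and 1091 without WT 2. There were 495 without WT 1, 436 without WT 5, 529 without KO 5, 538 without KO 1 and 572 without KO 3.

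The annotated starts of 57 of the 77 members were found among RefSeq promoters on GRCm38.p6. In the 30 bases centred on the annotated start, read on the gene's own strand, 25 of the 57 members (43.9%) had an unbroken run of at least 8 letters that are each C or T, beside 14.3% of 8183 genes that passed the filter and 13.9% of all 27025 genes in that table. By copy share the counts were 23 of 46 members with a steady share and 2 of 11 of the others. Rpl4, of the block, and Rpl34, of the 7 that fell, both carry such a run, in capitals below, with 15 bases on each side of the start. The longest runs of Rps15, Rplp0 and Rps3a1 had only 3, 5 and 2 letters. The run of Rpl4 covers bases 1 to 11 of its window and so ends before the annotated start, outside the annotated mRNA. That of Rpl34, of 18 letters from base 1, spans the start. The windows are chr9:64173372-64173401 on the plus strand and chr3:130730323-130730352 on the minus strand.
Rpl4: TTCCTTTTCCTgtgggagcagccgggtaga
Rpl34: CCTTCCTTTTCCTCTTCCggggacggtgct
The absence of a run in a window says only that the letters are not there.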

How the data were processed

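The data are 10 RNA-seq libraries of mouse esophageal epithelium from which muscle and mesenchyme had been removed with Dispase, sequenced as 150-base read pairs, per the labels' protocols. The authors deposited 1 table of FPKM values with 2 decimals for 56691 genes. Tools named in the submitters' processing notes are HISAT2 2.0.1, HTSeq 0.6.1 and cutadapt, with mm9 as build. Not given in the sources used here are the gene annotation, whether strand was used, and how reads matching several places were treated, so overlapping or antisense genes cannot be told apart.

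No counts were used. Fragment totals were estimated as those at which FPKM of short single-exon genes become whole fragments with GENCODE M21 gene lengths. Values counted as whole within 0.01 fragments beyond the rounding of FPKM to 2 decimals (97.8% to 98.5% of values, 9.22% to 11.0% by chance). For 216 member values under 3000 fragments, 84.3% were whole by the same limit, against 22.3% by chance. As M21 is on GRCm38 and not mm9, genes are given by chromosome only. Copies were found with blastn 2.17.0 as annotated genes matching at least 50% of a member's coding sequence and at least 50% of their own transcript at 85% identity. FPM values are FPKM multiplied by the gene length, and the 31-base stretches were sought in all M21 transcripts.

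The model was limma 3.58.1 (R 4.3.3) on log2(FPKM + 1), with genotype as the only term, trend and robust estimation, genes at 1 FPKM or more in at least 5 libraries, adjustment over 11386 genes and a threshold of 0.05. It was tested on simulated data. The members and lists were chosen with earlier results of these data known. Named genes were, by rule, Rpl29, Rps3a1, Rpl34 and Rpl30, the 5 members of highest FPKM and those past the threshold. Members with a mean under 10 FPKM and the 3 nearest to no difference were also named by rule. So were up to 3 copies, at a mean of 1 FPKM or more in either genotype, of the first 4 and of members past the threshold. The rule also took up to 4 genes past the threshold per list. Rps3, Rps6, Rps12, Rpl37a, Rplp2, Rpl10a, the further copies and the members named for their copy share were chosen after their values were seen. Alternatives covered the pseudocount, the filter, scaling, the model, each library left out and gene families.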

Additional observations from a re-analysis of the deposited data

Results flagged for a closer look

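In groups of 5 libraries, 58 group values of the named members and of the summed level were searched for a library whose gap to the nearest other exceeds 0.71 of the group's range, which chance gives in about 1 in 20 groups. This held for 3 of them. Rps3a1 in KO 2, at 590.0 FPKM against 8.08 to 11.4 in the other KO libraries, is described above with its copies. Rpl29 was at 2.12 FPKM in KO 4 against 1.02 to 1.30 in the other KO libraries, all far below WT. Rpl27 was at 11.5 FPKM in WT 4 against 6.18 to 7.64 in the other WT libraries. The deviation of Rpl26 in WT 3 and of Rpl3 in WT 2 did not meet this limit, since their groups also spread widely among the other libraries.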

How the results depend on the processing

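The fall of Rpl29 held under all alternatives run, and those of Rpl34 and Rpl30 under all but the fit of gene families. Of the 7 members lower in KO, 1 was lower when members were counted with their copies and 4 at a threshold of 0.01, and 5 to 7 when 1 library was left out. The 1 member higher in KO (Rpl27) became 0 with a pseudocount of 5, no filter, median ratio or quantile scaling, rescaling without the 100 highest genes, no trend or robust estimation, the replicate block and the threshold of 0.01, and 0 to 2 when 1 library was left out. Without WT 2 and WT 3, an alternative chosen after seeing the data, 2 were higher. The replicate numbers did not pair the libraries (same-number correlations of 0.06, 0.42, 0.19, -0.24 and 0.11). The block changed the copies lower in KO from 4 to 7; these were also 7 with array weights, 2 at 0.01, and 2 to 6 with 1 library left out. Copies higher numbered 31 without WT 2 and WT 3, a fit in which 1056 of all tested genes were higher, against 900 in the main fit. Related genes higher numbered 2 without a filter, 5 under quantile scaling, 4 without the 100 highest genes, 17 with array weights, 2 at 0.01, and 2 to 17 with 1 library left out. Those lower numbered 3 with array weights, 3 without WT 2 and WT 3, and 1 to 4 with 1 library left out. Of all tested genes, 511 of 27599 were higher without a filter, 685 under quantile scaling, 561 without the 100 highest genes and 1390 with array weights. Lower were 565 in the main fit, 551 with the replicate block, 787 with array weights and 798 without WT 2 and WT 3.

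Among the members named by the rule or for their copy share, signs turned in Rps7 and in 7 near 0, of which only Rps13, as a family, passed the threshold: Rplp1 (-0.036 with median ratios, -0.060 without the 100 highest genes, -0.051 to 0.14 with 1 library left out), Rpl5 (0.13 as a family, -0.091 to 0.061), Rps13 (-0.015 and -0.031 under the same scalings, -0.037 with array weights, -0.11 without WT 2 and WT 3, -0.079 to 0.15), Rpl13a (0.079 with array weights, 0.11 without WT 2 and WT 3, -0.11 to 0.080), Rpl21 (0.15 and 0.29, -0.16 to 0.19), Rpl10 (-0.027 as a family) and Rpl11 (-0.033, -0.070 and -0.057 with median ratios, quantiles and without the 100 highest genes, -0.049 to 0.12). Rps7, at -0.67 alone, was at 0.20 as a family. The cause of these changes was not tested. Members of low FPKM rest on few fragments, and fragments shared by a member and its copies limit all values of single members.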
